A study of Mus musculus with 10 samples.

Results

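A set of 10 genes of the cornified envelope outside the Sprr2 family was described in uterine RNA-seq of transgenic and wild type mice. They were taken by name: the small proline-rich protein genes Sprr1a, Sprr1b and Sprr3, the envelope precursor genes Ivl, Lor, Cnfn, Scel and Krtdap, and the transglutaminase genes Tgm1 and Tgm3. Of these 10 genes, 8 had a row among the 29268 genes of the table. Sprr1b and Krtdap had no row in the table used here and were not analysed. Only Sprr1a, Lor, Tgm1 and Scel, 4 of the 8 listed genes, passed the filter on low counts and were among the 16993 genes tested. Sprr3, Ivl, Cnfn and Tgm3 did not pass it and are given by their counts.

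The HSD17B1TG mice were heterozygous for a human HSD17B1 cDNA driven by a CMV-enhanced chicken beta actin promoter, which is active in many tissues, so the enzyme is not limited to the uterus. HSD17B1 is a hydroxysteroid dehydrogenase that turns estrone into the more potent estradiol. Uteri of 5 HSD17B1TG and 5 WT females, all on the FVB/N background and aged 4 months, gave 1 library each, and the mice are called TG1 to TG5 and WT1 to WT5 here. According to the study the transgenic females do not cycle, and the labels give no cycle phase for the WT mice, so genotype and cycle phase cannot be told apart. For its histology the study took WT uteri without regard to cycle phase, and the WT mice sequenced here may likewise differ in phase, whose part in their spread was not tested. The libraries held 14817228 to 23271988 counts on genes. The mouse gene Hsd17b1 was at 0.992 ± 0.291 FPKM in HSD17B1TG and 0.918 ± 0.375 FPKM in WT (SD, n = 5), but the transgene is human, so its row does not check the labels. Levels are given as FPKM, fragments scaled by gene length and by the size factor of each library, which can be compared between genes because they are per length.

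The cornified envelope is the protein shell that forms under the membrane of keratinocytes as they die at the surface of the skin and of other squamous epithelia. Transglutaminases cross-link precursor proteins into it: involucrin is laid down early, loricrin supplies much of the mass in the epidermis, and small proline-rich proteins act as bridges between them. The uterine lining is a simple columnar epithelium and forms no such shell, whereas the vagina and the outer cervix of the mouse do cornify under estrogen. Small proline-rich protein genes are nevertheless known to be expressed in the uterine epithelium.

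Sprr1a was the single gene of the 8 with an appreciable uterine level. The gene lies at chr3:92483952-92485895 on the minus strand (GRCm38). Its FPKM were 8.19 in TG1, 12.6 in TG2, 21.3 in TG3, 57.6 in TG4 and 52.7 in TG5. In the WT mice its FPKM were 9.89 in WT1, 3.27 in WT2, 0 in WT3, 15.0 in WT4 and 1.15 in WT5. TG3, TG4 and TG5 lay above every WT mouse, whereas TG1 lay below WT1 and WT4 and TG2 lay below WT4, so the groups overlapped. WT2, WT3 and WT5 in turn lay below every HSD17B1TG mouse. The counts behind these levels ranged from 123 to 748 in HSD17B1TG and from 0 to 250 in WT, and a count of 3, the most that 0 counts allow, corresponds to at most 0.239 FPKM for this gene. Averaged over the 10 mice, Sprr1a was higher than 83.8% of the listed protein-coding genes.

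The mean level of Sprr1a was 30.5 ± 23.1 FPKM in HSD17B1TG and 5.87 ± 6.39 FPKM in WT (SD, n = 5), a ratio of 5.19. The spread within genotype was of the size of the means: the highest HSD17B1TG mouse was 7.03-fold above the lowest. On the log2(FPKM + 1) scale the difference was 2.48 (two-sided exact permutation test over all assignments of 10 mice, p = 0.0397, not adjusted for the 8 genes examined). In the fit across all genes the log2 fold change was 2.38 (SE 1.01, 95% interval 0.15 to 4.60), and the adjusted p of edgeR's quasi-likelihood test with Benjamini-Hochberg adjustment was 0.166. Sprr1a was therefore not called, which takes a mean over 1 FPKM in either group, an adjusted p under 0.05 and a fold change over 2. Without TG3, TG4, TG5, WT2, WT3 or WT5 the exact permutation p was between 0.0556 and 0.0714, while the difference itself lay between 1.95 (without WT3) and 2.52 (without TG3).

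None of the 4 tested genes was called higher (0 of 4) and none was called lower (0 of 4) in HSD17B1TG. Over all 16993 tested genes, 367 or 2.16% were called higher and 354 or 2.08% lower. This background moved by over 1.5 times on leaving out any 1 mouse other than TG3, from 38 higher and 27 lower without TG5 to 888 higher and 666 lower without WT4, and DESeq2 gave 906 and 666, while the calls among the 4 genes were 0 in each of these fits. At an unadjusted edgeR p under 0.05 there was 1 of the 4 genes, Sprr1a, beside 26.1% of all genes tested, so this count was close to the background. DESeq2 also called 0 of the genes, and at an unadjusted p under 0.05 it had 2 of the 8, Sprr1a and Cnfn, beside 19.3% of all genes with a p. Groups that did not overlap in FPKM were found for 0 of the 8 listed genes and for 6.69% of all genes tested.

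**Figure D1:**
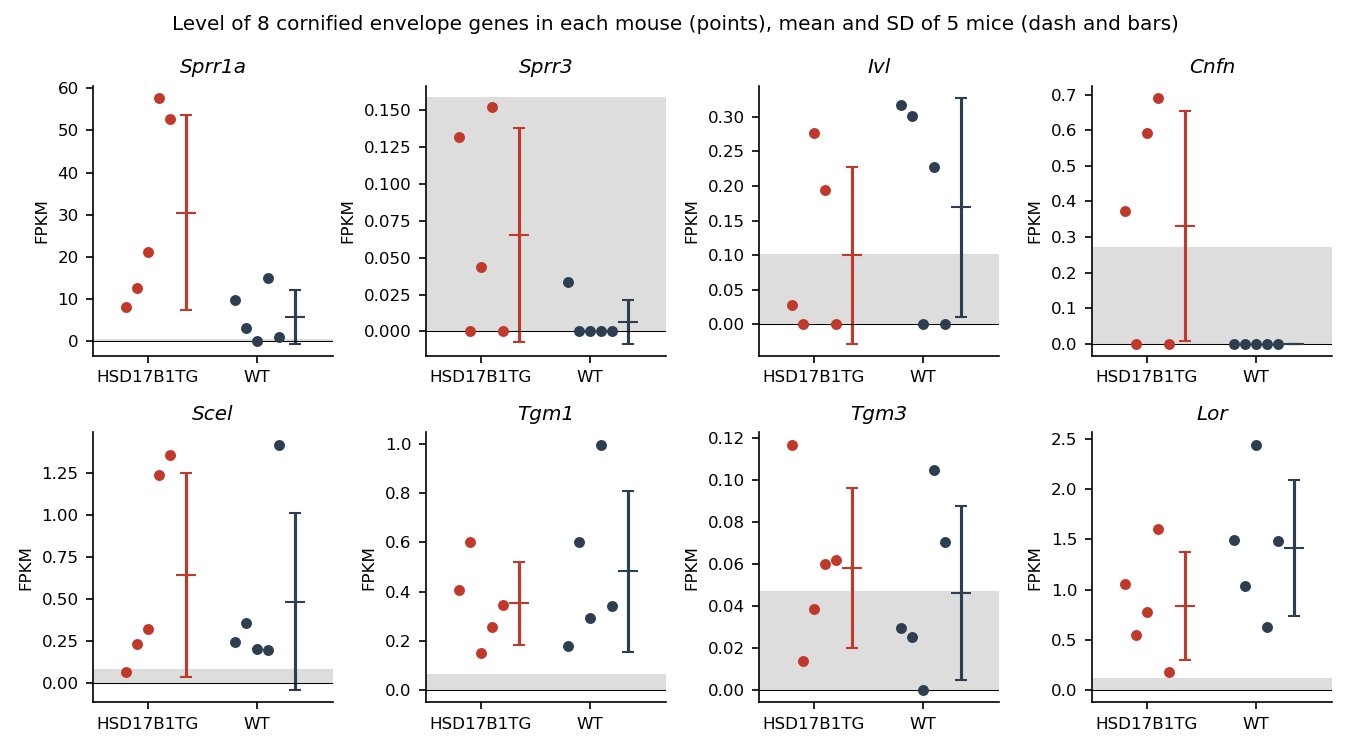
FPKM of the 8 listed genes (vertical axes, each panel on its own scale) in each HSD17B1TG (red) and WT (dark blue) mouse, with the mean and SD of 5 mice beside the points and, in grey, the range under the level of 3 counts. Sprr1a alone exceeds 2.44 FPKM, the highest value of Lor, all Sprr3 values lie in the grey range, and in every panel the groups share a range of values or the value 0.

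Markers of the uterine epithelium are set beside Sprr1a here. The summed level of 12 epithelium markers was 772 to 3609 FPKM in HSD17B1TG (median 2533) and 536 to 1841 FPKM in WT (median 861), with a log2 difference of 1.21 (exact permutation test, p = 0.0476), and 12 of the 12 markers had a positive log2 fold change. The summed level of 8 stroma markers was 488 to 1886 FPKM in HSD17B1TG and 1653 to 1989 FPKM in WT. In bulk tissue, fewer cells of a type and less RNA per cell cannot be told apart. Per 1000 FPKM of the epithelium markers, Sprr1a was at 10.6, 4.95, 7.71, 27.3 and 14.6 FPKM in TG1 to TG5, and at 8.61, 3.79, 0, 8.16 and 2.15 FPKM in WT1 to WT5. On this relative scale TG1, TG4 and TG5 lay above every WT mouse, and log2(FPKM + 1) of Sprr1a less log2 of the marker sum differed by 1.28 (exact permutation test, p = 0.0714). With the epithelium markers as a term in the edgeR fit, the log2 fold change of Sprr1a was 1.11 (adjusted p = 0.545). Over all genes this term took the calls from 367 higher and 354 lower to 12 and 0. The marker level itself differed between the genotypes, so the term and the genotype overlap. A call lost under this term therefore says little about the single gene. The part of the epithelium in the Sprr1a difference was not tested.

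**Figure D2:**
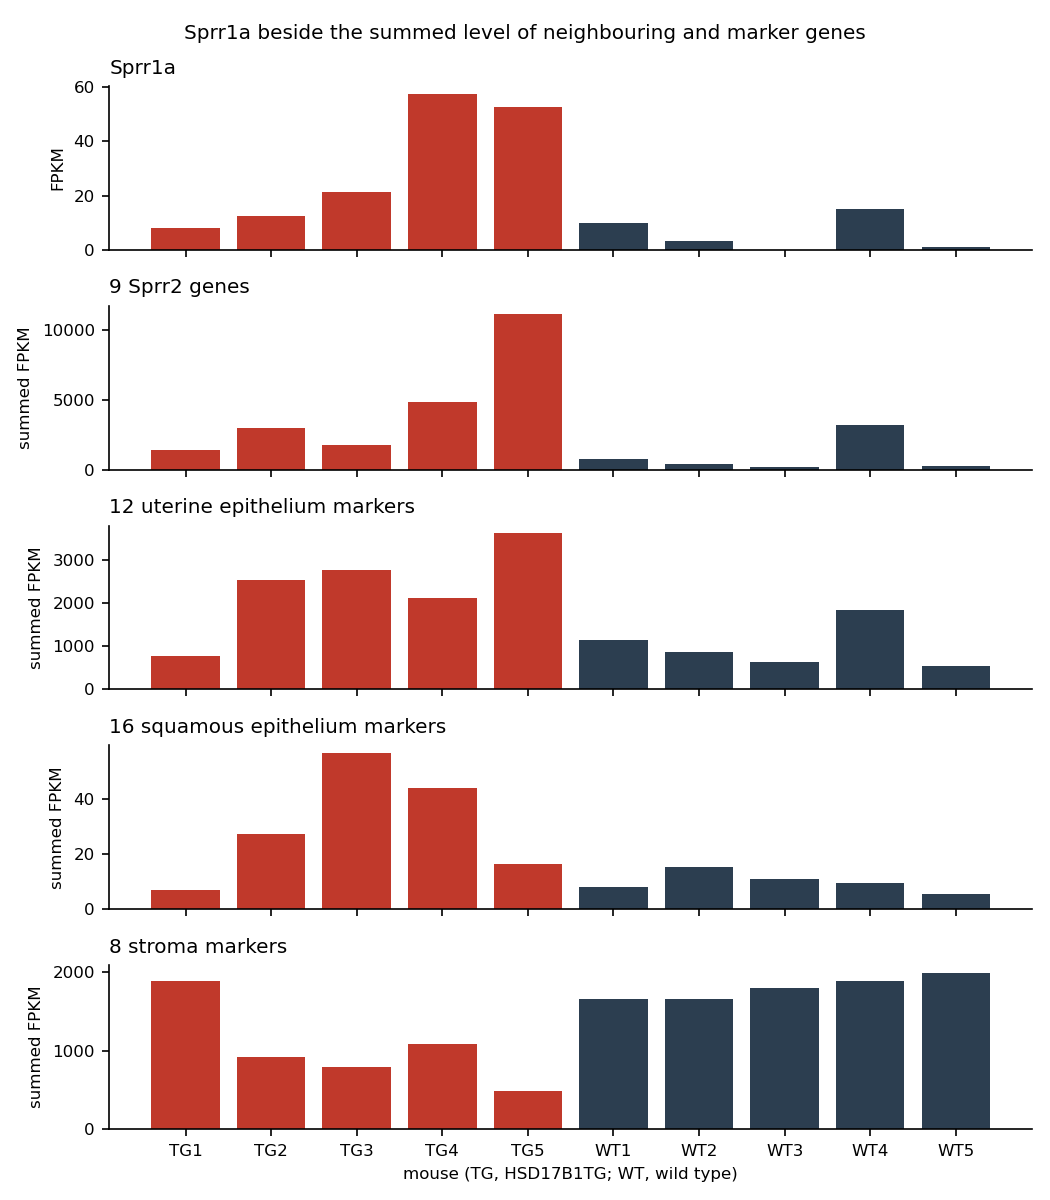
Sprr1a in FPKM (top) and the summed FPKM of 9 Sprr2 genes, 12 uterine epithelium, 16 squamous epithelium and 8 stroma markers (vertical axes) in each mouse (horizontal axis, HSD17B1TG red, WT dark blue). TG4 and TG5 are the highest for Sprr1a and for Sprr2, WT4 is the highest WT mouse for Sprr1a, Sprr2 and the uterine epithelium markers, and the squamous markers peak in TG3 at 56.6 FPKM.

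Sprr3, at chr3:92456502-92458720 on the minus strand, encodes the small proline-rich protein typical of internal squamous epithelia such as the oesophagus. Its counts were 3 in TG1, 1 in TG3 and 3 in TG4, and 0 in TG2 and TG5. Of the WT mice only WT1 had a count, of 1. No mouse exceeded the floor of 3 counts used here, which does not show that the gene is absent. The summed counts, 7 against 1, gave a ratio of 7.23 per total count with an exact 95% counting interval of 0.929 to 326, so a difference was not detectable at this depth. Intervals and floors of this kind cover counting error only.

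Cnfn, at chr7:25367620-25369724 on the minus strand, encodes cornifelin, a small envelope protein. Its counts were 5 in TG1, 8 in TG3 and 8 in TG4, 0 in TG2 and TG5, and 0 in all 5 WT mice. The level in the 3 mice with counts was 0.373, 0.591 and 0.690 FPKM. The counts pooled over the mice, 21 against a floor of 3 for the WT group, gave a ratio of 7.23 per total count. This ratio is no lower bound for the genotype, because pooling leaves out the spread between mice. The exact permutation test on log2(FPKM + 1) gave p = 0.167 for Cnfn and for Sprr3, and p = 0.0476 for either gene without TG2 or without TG5, the HSD17B1TG mice with 0 counts of both. Without the filter on low counts, edgeR gave Cnfn an unadjusted p of 0.0118 and an adjusted p of 0.133, and DESeq2 an adjusted p of 0.102. Cnfn and Sprr3 were thus both counted in TG1, TG3 and TG4 and in neither TG2 nor TG5.

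Ivl, at chr3:92570902-92573735 on the minus strand, encodes involucrin, the early scaffold of the envelope. Its counts were 1, 0, 10, 6 and 0 in TG1 to TG5 and 15, 11, 0, 9 and 0 in WT1 to WT5. The highest level was in WT1, at 0.317 FPKM, and both groups had 2 mice at 0. The means were 0.0996 ± 0.128 FPKM in HSD17B1TG and 0.169 ± 0.158 FPKM in WT (SD, n = 5; exact permutation test, p = 0.429).

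Squamous epithelium, which lines the vagina and outer cervix, was traced with 16 keratin and basal cell markers. Their summed level was 7.09, 27.4, 56.6, 44.1 and 16.6 FPKM in TG1 to TG5 and between 5.63 and 15.2 FPKM in the WT mice (log2 difference 1.37, exact permutation test, p = 0.0635). Krt10 had the highest mean of the 16 in WT, at 5.26 ± 1.71 FPKM in HSD17B1TG and 4.48 ± 1.30 FPKM in WT (SD, n = 5, edgeR adjusted p = 0.637). The counts of Cnfn, Sprr3 and Ivl are set beside the sum mouse by mouse, and are too low to rank the mice. TG3 and TG4, the highest of all mice, had Cnfn and Ivl counts above the floor. TG2 and TG5, which also lay above every WT mouse, had 0 counts of all 3 genes. TG1, which had Cnfn counts, lay below 4 of the 5 WT mice, and WT1, with the most Ivl counts, was at 8.09 FPKM. Of the 16 markers, 8 were tested, and Krt13, a keratin of internal squamous epithelia, was the single one called, at 9.46 ± 6.39 FPKM in HSD17B1TG against 0.473 ± 0.459 FPKM in WT (SD, n = 5; log2 fold change 4.30, edgeR adjusted p = 0.0426). That call was lost on leaving out any 1 mouse other than TG1 and WT4, with an edgeR adjusted p of up to 0.0933, and with the epithelium markers as a term (log2 fold change 2.48, edgeR adjusted p = 0.284). Krt1, a keratin of cornifying epidermis, had a log2 fold change of 2.73 (edgeR adjusted p = 0.0227) but stayed under the threshold of 1 FPKM, with means of 0.635 and 0.0937 FPKM. Its edgeR adjusted p was between 0.0522 and 0.0654 without TG2, TG4, TG5, WT2, WT3 or WT5, and 0.225 with the epithelium markers as a term (log2 fold change 1.78). Of the basal cell genes, Krt5 was at 6.94 ± 8.42 FPKM in HSD17B1TG and 1.23 ± 0.736 FPKM in WT (edgeR adjusted p = 0.236), Krt14 at 2.01 ± 2.56 and 0.645 ± 0.463 FPKM (edgeR adjusted p = 0.334) and Krt15 at 4.33 ± 3.88 and 1.82 ± 2.30 FPKM (SD, n = 5; edgeR adjusted p = 0.522). Their log2 fold changes were 2.48, 1.62 and 1.24. With a mouse left out, that of Krt5 ran from 1.78 to 2.90. That of Krt14 ran from 0.59 (without TG3) to 2.08, and that of Krt15 from 0.78 to 2.33 (without WT2). Col17a1 had a log2 fold change of 1.19 (edgeR adjusted p = 0.0980), and Trp63, Dsg3 and Dsc3 stayed at or under 0.251 FPKM in every mouse. These basal cell genes, Krt1 and Krt10 were named after their values were seen, and no marker was at 0 in all mice. The part of squamous tissue in the counts of Cnfn, Sprr3 and Ivl was not tested.

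Lor, at chr3:92080271-92083142 on the minus strand, encodes loricrin, the glycine-rich precursor. Its FPKM were 1.06, 0.549, 0.777, 1.60 and 0.181 in TG1 to TG5 and 1.49, 1.04, 2.44, 0.626 and 1.48 in WT1 to WT5. WT3 was the highest and TG5 the lowest of all mice, and TG4, the highest for Sprr1a, was the second highest for Lor. TG2 and TG5 lay below every WT mouse, and WT3 above every HSD17B1TG mouse. The log2 fold change was -0.76 (SE 0.53, 95% interval -1.94 to 0.41, edgeR adjusted p = 0.393), and it was 0.063 with the epithelium markers as a term.

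Scel, at chr14:103513342-103612797 on the plus strand, encodes sciellin, a precursor protein of stratified epithelia. Its FPKM were 0.0643, 0.230, 0.319, 1.24 and 1.36 in TG1 to TG5 and 0.244, 0.358, 0.198, 0.193 and 1.42 in WT1 to WT5. TG4 and TG5 were high as they were for Sprr1a, but the highest mouse was WT5, where Sprr1a was at 1.15 FPKM. The log2 fold change was 0.39 (SE 0.83, 95% interval -1.44 to 2.23, edgeR adjusted p = 0.806). It was 1.33 without WT5, 0.010 without TG4 and -0.078 without TG5, so single mice set its size and sign.

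The cross-linking enzymes were low. Tgm1, at chr14:55700009-55713926 on the minus strand, encodes the membrane-bound transglutaminase of keratinocytes. Its FPKM were 0.407, 0.600, 0.151, 0.255 and 0.345 in TG1 to TG5 and 0.180, 0.599, 0.294, 0.995 and 0.340 in WT1 to WT5. All but WT4 lay between 0.151 and 0.600 FPKM, and the log2 fold change was -0.45 (SE 0.52, 95% interval -1.59 to 0.69, edgeR adjusted p = 0.622). Without WT4 it was -0.0086. An antisense gene, Gm49067, overlaps Tgm1 in GENCODE M21, and with the strand setting of the counting not given, reads of the pair cannot be told apart. Tgm3, at chr2:130012349-130050399 on the plus strand, encodes the soluble transglutaminase of the upper epidermis and hair follicle. It had 1 to 9 counts in the HSD17B1TG mice and 0 to 9 in the WT mice, with means of 0.0583 ± 0.0381 and 0.0462 ± 0.0417 FPKM (SD, n = 5; exact permutation test, p = 0.635).

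**Figure D3:**
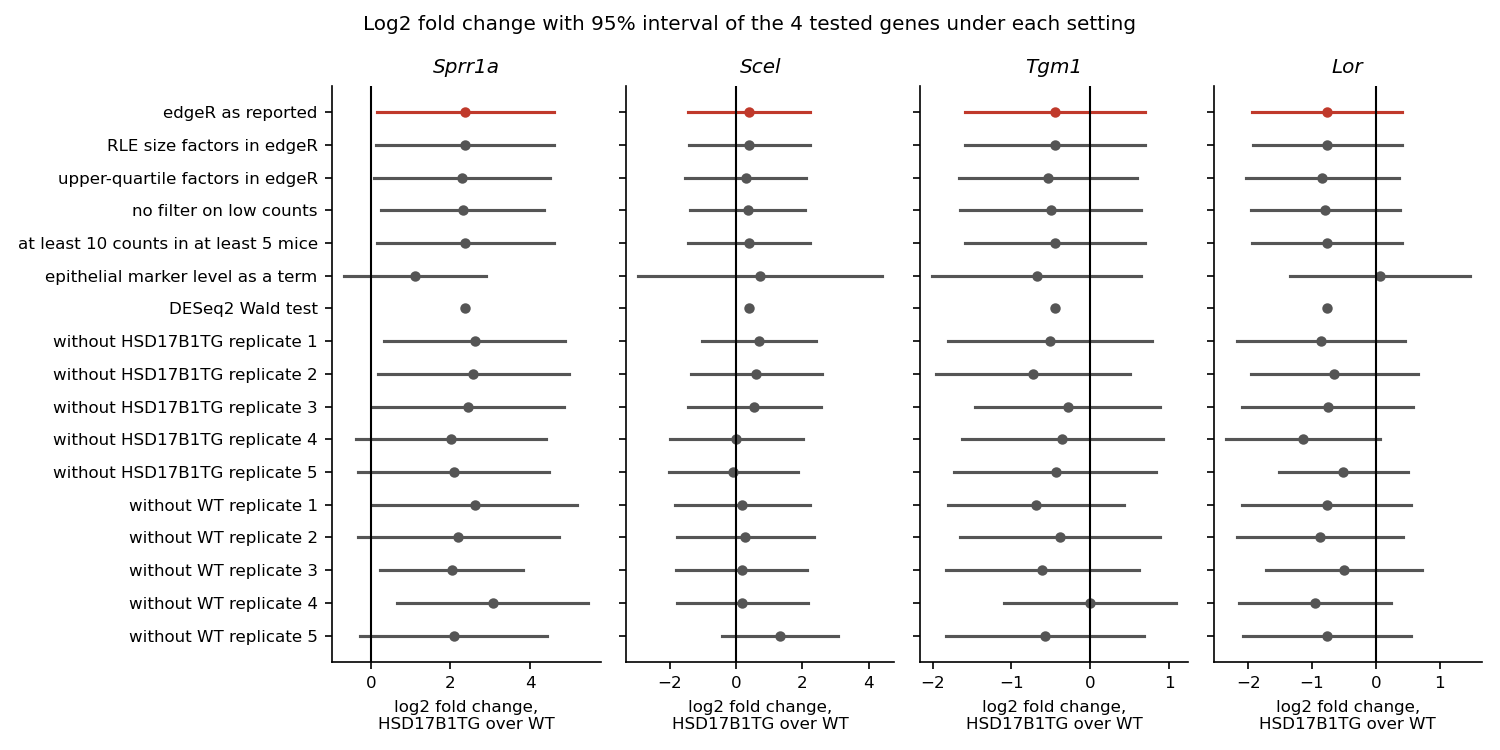
Log2 fold change of HSD17B1TG over WT (horizontal axis) with its 95% interval for the 4 tested genes, in the edgeR fit reported here (red) and under each other setting (grey, rows), with the DESeq2 value drawn without an interval. The Sprr1a points lie between 1.11 and 3.07, and its interval excludes 0 in the reported fit but includes 0 with the epithelium term (-0.66 to 2.89) and without TG4, TG5, WT2 or WT5, while the intervals of Scel, Tgm1 and Lor include 0 in the reported fit.

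In HSD17B1TG the order of the genes by median FPKM was Sprr1a at 21.3, Lor at 0.777, Cnfn at 0.373, Tgm1 at 0.345, Scel at 0.319, Tgm3 at 0.0600, Sprr3 at 0.0435 and Ivl at 0.0279. Only the step from Sprr1a to Lor was free of overlap between mice, and all other neighbours in this order overlapped. In WT the order was Sprr1a at 3.27, Lor at 1.48, Tgm1 at 0.340, Scel at 0.244, Ivl at 0.227 and Tgm3 at 0.0295, with Sprr3 and Cnfn at 0. Here even Sprr1a and Lor overlapped, and Sprr1a exceeded Lor in 3 of the 5 WT mice. Of all counts on the 8 genes, Sprr1a took 60.6% to 89.3% in the HSD17B1TG mice and 0% to 68.3% in the WT mice.

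After the mean of each genotype was removed, Pearson's r of log2 CPM over the 10 mice lay between -0.49 (Sprr1a with Lor) and 0.26 (Sprr1a with Scel) for the 6 pairs of the 4 tested genes. The genes whose pattern was most like Sprr1a among 14311 protein-coding genes were Pmepa1 (r = 0.97), Rnf183 (r = 0.96) and Ccdc162 (r = 0.95). For Lor they were Wdr91 (r = 0.97), Exoc3l (r = 0.95) and Rasip1 (r = 0.94). For Scel they were Slc16a11 (r = 0.94), Kcne3 (r = 0.94) and Slc25a33 (r = 0.93), and for Tgm1 they were Atg4a (r = 0.92), Inafm2 (r = 0.87) and Phkb (r = 0.87). These r describe 10 libraries, the highest of many comparisons, and share the depth and tissue composition of each library.

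Sprr1a, Sprr3, Ivl and Lor lie in the epidermal differentiation complex, a cluster of envelope genes, within 493 kb of chromosome 3 (chr3:92080271-92573735). Sprr1a and Sprr3 are separated by 25.2 kb, Sprr1a and Ivl by 85.0 kb, and Lor lies 401 kb from Sprr1a. The stretch held 22 listed genes, of which 18 were other genes, most of them Sprr2 genes and pseudogenes. Of these 18, 9 were tested, 2 were called higher and 0 lower. The called genes were Sprr2d, at 24.9 ± 25.6 FPKM in HSD17B1TG and 0.436 ± 0.715 FPKM in WT (log2 fold change 5.78, edgeR adjusted p = 0.0279), and Sprr2b, at 22.9 ± 20.4 and 0.592 ± 0.994 FPKM (SD, n = 5; log2 fold change 5.23, edgeR adjusted p = 0.0279). Both calls were lost without TG4, TG5, WT1, WT2, WT3 or WT5, and that of Sprr2b also without TG2, with an edgeR adjusted p of up to 0.0747. The lowest log2 fold changes were 5.07 for Sprr2d and 4.55 for Sprr2b, both without TG5. Without WT4 they were highest, at 7.52 for Sprr2d (edgeR adjusted p = 0.00659) and 7.03 for Sprr2b (edgeR adjusted p = 0.00418). Both calls were also lost with the epithelium markers as a term, where the log2 fold change was 4.32 for Sprr2d (edgeR adjusted p = 0.147) and 3.90 for Sprr2b (edgeR adjusted p = 0.0964). Under that term there were 12 higher and 0 lower calls over all genes. The summed level of the 9 listed Sprr2 genes was 1386 to 11170 FPKM in HSD17B1TG and 169 to 3200 FPKM in WT. Sprr2f, at 4315 ± 3905 and 913 ± 1250 FPKM, made up most of this sum and was not called (SD, n = 5, edgeR adjusted p = 0.149). Of the 7 tested, 6 had a positive log2 fold change. Sprr2g had a negative one, -1.24, at 17.2 ± 14.8 and 40.3 ± 45.4 FPKM (SD, n = 5, edgeR adjusted p = 0.452). Sprr2f and Sprr2g were named after their values were seen. A ratio to the sum is mainly a ratio to Sprr2f. Per 1000 FPKM of Sprr2, Sprr1a was at 4.20 to 11.8 FPKM in the HSD17B1TG mice and 0 to 12.4 FPKM in the WT mice. Sprr1a and Sprr2 were lowest in WT3 and, among the WT mice, highest in WT4.

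**Figure D4:**
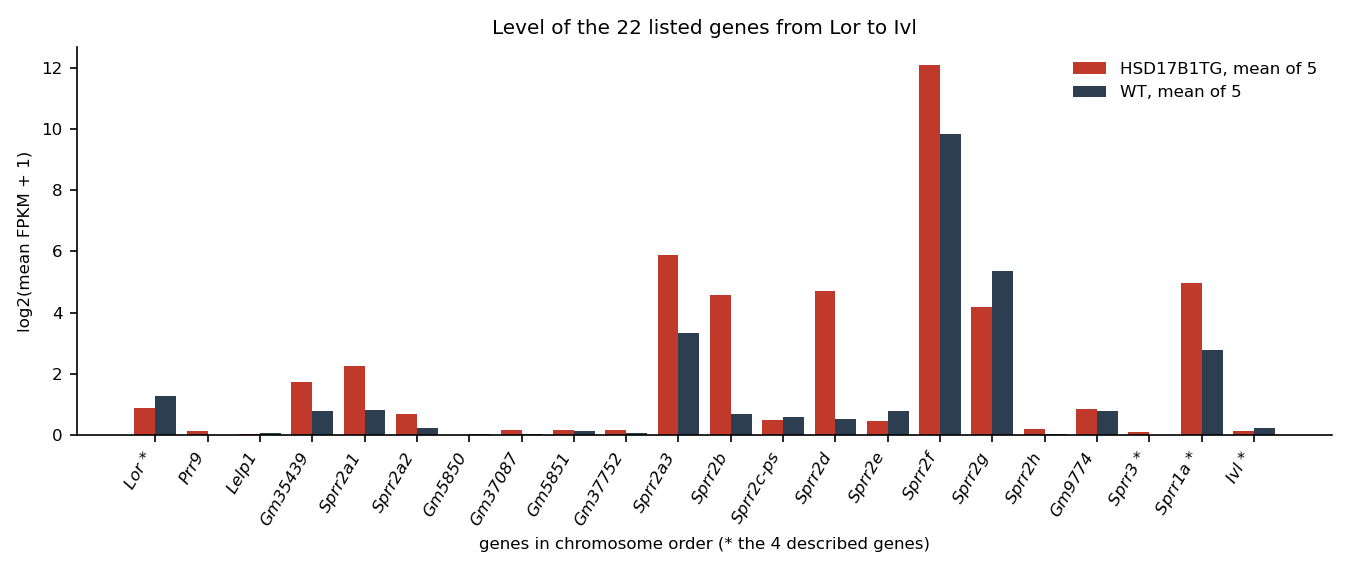
Level of the 22 listed genes from Lor to Ivl in chromosome order (horizontal axis) as log2(mean FPKM + 1) of the 5 HSD17B1TG (red) and 5 WT (dark blue) mice (vertical axis). Sprr2f is the tallest pair of bars, Sprr1a stands between the near-zero bars of Sprr3 and Ivl, and Lor is 1 of the genes with the higher bar in WT.

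The other genes of cornification were counted in lists. Of 42 further envelope proteins, 20 were listed and 9 tested, with 0 called. The most abundant were S100a11, a calcium-binding envelope component at 342 ± 94.9 FPKM in HSD17B1TG and 277 ± 20.4 FPKM in WT (edgeR adjusted p = 0.349), and S100a10, at 195 ± 18.2 and 295 ± 75.1 FPKM (SD, n = 5; edgeR adjusted p = 0.0641). Flg, filaggrin, which marks the outer epidermis, was at 0.00659 FPKM or less in every mouse. Of the desmosome and scaffold genes 7 were tested and 0 called, with 7 of 7 log2 fold changes positive and a median of 1.08 beside a median of 0.0021 over all genes tested and 1.24 over the uterine epithelium markers. Perp, a desmosome protein, was at 74.2 ± 33.0 FPKM in HSD17B1TG and 35.0 ± 26.3 FPKM in WT (edgeR adjusted p = 0.220), and Jup, plakoglobin, at 38.5 ± 10.7 and 19.3 ± 10.1 FPKM (SD, n = 5; edgeR adjusted p = 0.104). Jup was called higher without WT4 (log2 fold change 1.24, edgeR adjusted p = 0.0414). With the epithelium markers as a term the log2 fold changes were -0.071 for Perp and 0.23 for Jup.

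Among 11 tested enzymes of the envelope and its lipids, 0 were called higher and 1 lower. This was Elovl4, an elongase of very long fatty acids, at 0.383 ± 0.174 FPKM in HSD17B1TG and 1.41 ± 0.561 FPKM in WT (SD, n = 5; log2 fold change -1.88, edgeR adjusted p = 0.0341), and the call was lost without TG2, TG4, TG5, WT1, WT2, WT3 or WT5 (edgeR adjusted p of up to 0.0809) and with the epithelium markers as a term (log2 fold change -1.20, edgeR adjusted p = 0.328). Tgm2 and Tgm5, further transglutaminases named after their values were seen, put Tgm1 and Tgm3 in proportion. Tgm2, the tissue transglutaminase, was at 270 ± 87.3 FPKM in HSD17B1TG and 135 ± 89.8 FPKM in WT (SD, n = 5; edgeR adjusted p = 0.138), far above both, and it was called without WT4 (edgeR adjusted p = 0.0114). Tgm5 was at 1.41 ± 0.865 and 0.303 ± 0.281 FPKM (SD, n = 5; edgeR adjusted p = 0.138). With the epithelium markers as a term the log2 fold change of Tgm2 went from 1.00 to 0.36 (edgeR adjusted p = 0.660) and that of Tgm5 from 2.20 to 0.70 (edgeR adjusted p = 0.665). All 20 regulators of cornification were tested, with 0 called higher and 1 lower. The latter was Prdm1, encoding the repressor BLIMP1, at 2.08 ± 0.947 FPKM in HSD17B1TG and 9.70 ± 3.63 FPKM in WT (SD, n = 5; log2 fold change -2.23, edgeR adjusted p = 0.0211), and the call was lost without TG2, TG5, WT2 or WT5 (edgeR adjusted p of up to 0.0552) and with the epithelium markers as a term (log2 fold change -1.91, edgeR adjusted p = 0.254).

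Of the 20 regulators, 13 had a positive log2 fold change, with a median of 0.56 beside 1.24 over the uterine epithelium markers, and 9 were at an unadjusted edgeR p under 0.05, beside 26.1% of all genes tested. Among these 9 only Prdm1 and Hopx had a negative log2 fold change. Elf3, Klf4 and Grhl3 are described here, chosen after their values were seen. Elf3, an ETS factor of epithelia, was at 504 ± 205 FPKM in HSD17B1TG and 98.0 ± 114 FPKM in WT (SD, n = 5; log2 fold change 2.37, edgeR adjusted p = 0.0804). Klf4, a Krüppel-like factor of the skin barrier, was at 115 ± 48.2 and 40.5 ± 28.6 FPKM (SD, n = 5; log2 fold change 1.51, edgeR adjusted p = 0.104). Grhl3, a grainyhead factor of barrier formation, was at 2.99 ± 2.61 and 0.194 ± 0.277 FPKM (SD, n = 5; log2 fold change 3.92, edgeR adjusted p = 0.0503). None of these 3 was called in the edgeR fit, but DESeq2 called all of them higher, with adjusted p of 0.00859 for Elf3, 0.0360 for Klf4 and 5.85e-04 for Grhl3. In edgeR, Elf3 was called without WT4 (log2 fold change 3.28, edgeR adjusted p = 0.0147) and Grhl3 without TG1 (edgeR adjusted p = 0.0278) or TG3 (edgeR adjusted p = 0.0466). With a mouse left out, the log2 fold change of Grhl3 ran from 3.32 (without TG4) to 5.24 (without WT2). That of Elf3 ran from 2.06 to 3.28 and that of Klf4 from 1.25 to 1.86. With the epithelium markers as a term their log2 fold changes were 1.45 for Elf3 (edgeR adjusted p = 0.254), 0.46 for Klf4 (edgeR adjusted p = 0.695) and 2.43 for Grhl3 (edgeR adjusted p = 0.430).

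Leaving out 1 mouse moved the number of cornification genes called higher, Sprr2 included, from 2 to 6 without TG1, to 12 without WT4, to 1 without TG2 and to 0 without TG4, TG5, WT1, WT2, WT3 or WT5.

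The promoter of Sprr1a is shown because it is the one gene of the set with an appreciable level, with that of Lor, which had the next highest level, and that of Cnfn, which was counted in HSD17B1TG mice only. The stretches, from RefSeq on GRCm38.p6, run 5′ to 3′ from 250 bases before to 50 bases after the start site, and capitals mark matches to AP-1 (TGANTCA) and to a TATA box (TATAAA).
Sprr1a, chr3:92485832-92486131, minus strand: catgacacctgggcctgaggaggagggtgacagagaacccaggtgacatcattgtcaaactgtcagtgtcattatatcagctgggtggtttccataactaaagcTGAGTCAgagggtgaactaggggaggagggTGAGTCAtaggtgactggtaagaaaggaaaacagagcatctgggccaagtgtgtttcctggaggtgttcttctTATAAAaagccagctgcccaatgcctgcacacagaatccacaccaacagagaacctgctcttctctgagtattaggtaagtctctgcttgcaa
Lor, chr3:92083093-92083392, minus strand: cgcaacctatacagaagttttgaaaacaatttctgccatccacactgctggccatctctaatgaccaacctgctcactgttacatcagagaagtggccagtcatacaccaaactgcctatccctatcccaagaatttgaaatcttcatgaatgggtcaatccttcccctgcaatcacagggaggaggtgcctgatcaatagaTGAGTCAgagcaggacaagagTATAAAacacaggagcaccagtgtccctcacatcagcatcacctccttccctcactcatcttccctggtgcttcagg
Cnfn, chr7:25369675-25369974, minus strand: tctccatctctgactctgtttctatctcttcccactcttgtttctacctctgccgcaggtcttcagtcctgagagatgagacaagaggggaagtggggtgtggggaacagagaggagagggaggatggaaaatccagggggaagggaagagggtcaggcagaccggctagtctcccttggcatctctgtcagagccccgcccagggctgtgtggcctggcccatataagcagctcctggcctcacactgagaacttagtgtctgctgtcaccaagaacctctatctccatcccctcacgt
The Sprr1a window held 2 matches to AP-1, the site of FOS and JUN dimers, that of Lor held 1 and that of Cnfn held 0.

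All 10 genes had a promoter in the RefSeq table, Tgm1 with 2 start sites. Both strands of each 300-base window were searched for each motif. AP-1 matches were present in 6 of the 10 genes and in 7.81% of all 32851 promoters, and TATAAA in 7 of the 10 genes and in 13.6% of all promoters. The 7 AP-1 matches, with 12 bases on either side and the motif in capitals, are shown because Sprr1a and Lor, the genes with the highest levels, both hold them.
Ivl, chr3:92573833-92573863, minus strand: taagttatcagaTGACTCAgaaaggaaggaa
Krtdap, chr7:30787812-30787842, plus strand: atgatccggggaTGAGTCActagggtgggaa
Lor, chr3:92083172-92083202, minus strand: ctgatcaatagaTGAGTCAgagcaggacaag
Scel, chr14:103513293-103513323, plus strand: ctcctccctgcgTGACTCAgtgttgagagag
Sprr1a, chr3:92486009-92486039, minus strand: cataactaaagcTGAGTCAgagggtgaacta
Sprr1a, chr3:92485979-92486009, minus strand: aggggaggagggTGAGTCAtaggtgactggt
Sprr1b, chr3:92438872-92438902, minus strand: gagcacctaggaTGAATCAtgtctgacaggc
Each of these letters is read on the strand of its gene. Both Sprr1a matches and those of Lor and Krtdap read TGAGTCA, those of Ivl and Scel TGACTCA, and that of Sprr1b TGAATCA.

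The estrogen response element, the palindrome of GGTCA and TGACC with 3 bases of any kind between them, was found in 0 of the 10 genes and in 0.0700% of all promoters. A single arm of it, GGTCA, was found in 6 of the 10 genes and 40.5% of all promoters, and these matches include any that form a palindrome. CACCC, the core bound by KLF factors, was found in 9 of the 10 genes and 57.5% of all promoters, and GGAAG, a core bound by ETS factors, in 7 of the 10 genes and 71.4% of all promoters. The Sprr1a window held 4 CACCC matches and no GGTCA or GGAAG. A match describes letters and not a bound site. The genes with AP-1 letters include Sprr1a, the highest of the set, and Ivl, which was at 0 in 4 mice. Of the regulators listed, the KLF gene Klf4 and the ETS gene Elf3 were described with the cornification regulators. The AP-1 subunit gene Junb, named after its values were seen, was at 48.6 ± 19.5 FPKM in HSD17B1TG and 26.4 ± 12.8 FPKM in WT (edgeR adjusted p = 0.164), and Fosl1 at 2.19 ± 0.743 and 2.43 ± 0.741 FPKM (SD, n = 5; edgeR adjusted p = 0.786).

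**Figure D5:**
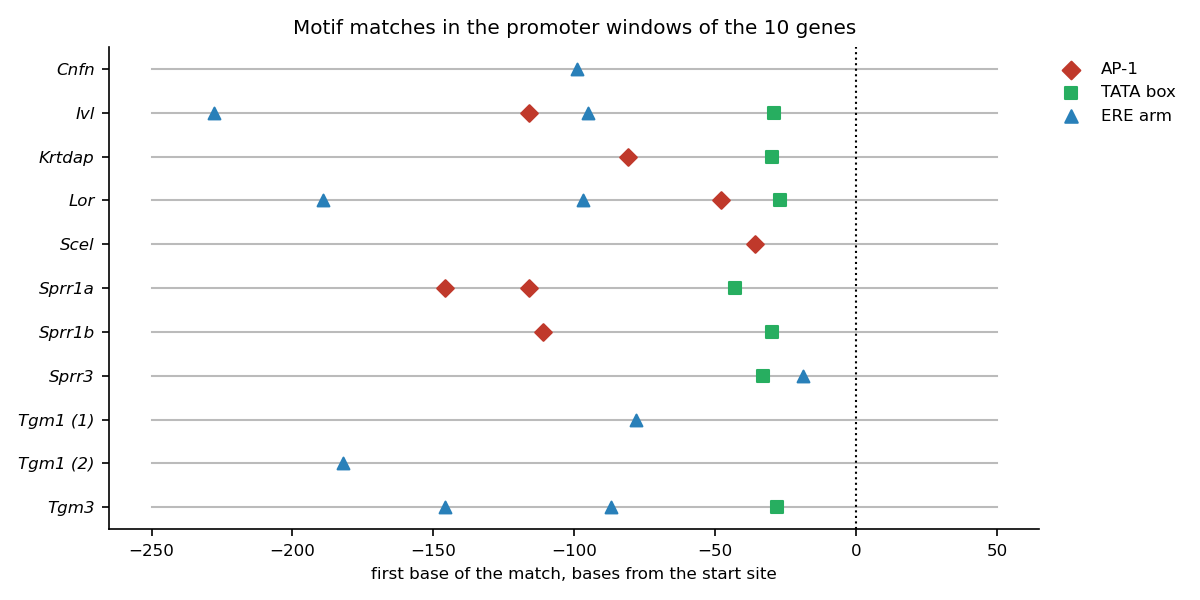
First base of each match to AP-1 (red), TATAAA (green) and the single estrogen response element arm GGTCA (blue) in the promoter windows of the 10 genes (rows, Tgm1 with 2 start sites), against the distance from the start site in bases (horizontal axis). AP-1 matches lie in 6 of the 10 genes, 2 of them in Sprr1a, and Cnfn, Scel and both Tgm1 windows lack TATAAA.

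No 100-base stretch of the Sprr1a transcripts in GENCODE M21, 707 in all, recurred in a transcript of another gene, and the same held for the other 9 genes.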

How the data were processed

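Uterine RNA of 5 HSD17B1TG and 5 WT mice was sequenced by the authors as paired-end reads of 150 bp and aligned to GRCm38 (Ensembl 94) with HISAT2 2.0.5. How reads were counted, by which program, on which strand and with what treatment of multiple hits, is not given in the sources used here. The authors deposited raw counts per gene and mouse, without pooling. The deposited signal is the count divided by a DESeq2 size factor, and the deposited FPKM use the gene length and the same factor, so that they are not scaled by each mouse's own total. The deposited log2 fold changes and p-values are the authors' own comparison of the groups and were not used, nor were 3 further deposited tables of called genes and of GO and KEGG terms.

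The raw counts went into the quasi-likelihood test of edgeR 4.0.16 (R 4.3.3, filterByExpr, TMM), and p-values were adjusted by Benjamini-Hochberg over all 16993 genes tested. Thresholds were those of the study's methods. DESeq2 1.42.0, other normalizations and filters, the epithelium marker level as a term, other scales and each mouse left out in turn were the alternatives. The edgeR and DESeq2 fits were checked on simulated counts with known changes. Single genes were compared on log2(FPKM + 1) with an exact permutation test, two-sided, over all assignments of the 10 mice, which cannot give a p below 0.00794. Labels name no batch, date or litter, and mice are numbered in accession order. P-values set the difference between genotypes against the spread between these mice, which in WT may include cycle phase.

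The 10 genes and all lists were chosen with earlier results of these data known. Lists were the Sprr2 genes, other envelope proteins, enzymes, desmosome and scaffold genes, regulators, and markers of squamous and uterine epithelium, smooth muscle, stroma, neutrophils, leucocytes and oviduct. Named from a list were up to 4 called genes with the smallest p or, with none called, the 2 with the highest mean FPKM, besides the 3 protein-coding genes most correlated with each tested gene and the called genes of the chromosome 3 stretch. Promoters came from RefSeq (GRCm38.p6), overlaps and transcripts from GENCODE M21. Versions were Python 3.11.15, pandas 2.3.3, numpy 2.4.6, scipy 1.17.1 and matplotlib 3.10.9.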

Additional observations from a re-analysis of the deposited data

Results flagged for a closer look

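In 15 groups of 5 mice (8 genes in both genotypes, less the WT group of Cnfn, where every mouse was at 0), the gap between an extreme mouse and its nearest neighbour was divided by the range of the group on the log2(FPKM + 1) scale. Dixon's 95% critical value for 5 samples was passed in 2 groups, and chance alone flags about 1 in 20. WT5 stood apart for Scel, at 1.42 FPKM against 0.193 to 0.358 FPKM in the other WT mice (ratio 0.818). WT1 stood apart for Sprr3 with a ratio of 1.00, which rests on 1 count in WT1 and 0 counts in the other WT mice.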

How the results depend on the processing

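The 0 calls among the 4 tested genes were found under every alternative run. The log2 fold change of Sprr1a stayed positive and uncalled, between 1.11 (epithelium term) and 2.38 with all mice and between 2.01 and 3.07 with a mouse left out. Its difference on log2(FPKM + 1), 2.48, was 1.95 to 2.95 with a mouse left out, 3.34 on log2(FPKM + 0.1) and 2.55 on log2(CPM + 0.5). Relative to the epithelium markers it was 1.28 (exact permutation p = 0.0714). On that relative scale Sprr3 (-1.13), Cnfn (-0.83), Scel (-1.08) and Tgm3 (-1.19) turned negative, and Ivl (-1.29, exact permutation p = 0.0238) and Tgm1 (-1.32, exact permutation p = 0.0317) passed 0.05; near 0 FPKM this scale follows the marker sum by construction. With the epithelium term Lor turned to 0.063, Fosl1 to 0.045, Perp to -0.071, Krt14 to -0.44 and Krt15 to -0.30. With a mouse left out, the log2 fold change of Scel ran from -0.078 to 1.33, its log2(FPKM + 1) difference from -0.022 to 0.32 and that of Tgm3 from -0.0029 to 0.037. The log2 fold change of Actg2 ran from -0.43 to 1.25, that of Acta2 from 0.069 to 1.57, that of Ovgp1 from -1.31 to 0.17, and that of Fosl1 from -0.38 to 0.0089. Over all genes, 367 higher and 354 lower calls became 906 and 666 with DESeq2, 12 and 0 with the epithelium term, 568 higher by adjusted p alone, and 38 to 888 higher and 27 to 666 lower with a mouse left out; the cause was not tested. Of the listed cornification genes other than the 10, 2 higher and 2 lower calls became 9 higher with DESeq2, 0 and 0 with the epithelium term, and 0 to 12 higher and 0 to 2 lower with a mouse left out. No paired analysis was possible because the labels pair no mice across genotypes. Counts of 3 or fewer, in every mouse for Sprr3 and in some mice for Cnfn, Ivl and Tgm3, limit these genes.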

Other observations

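The remaining marker lists describe what else the libraries held. The summed level of 8 neutrophil markers was 7.27 to 12.8 FPKM in HSD17B1TG and 0.601 to 4.38 FPKM in WT (log2 difference 2.31; exact permutation test, p = 0.00794, the smallest 5 against 5 mice can give). Of this list 3 genes were tested and 0 called, with Ly6g at 5.59 ± 3.13 FPKM in HSD17B1TG and 1.27 ± 1.69 FPKM in WT (edgeR adjusted p = 0.236) and S100a9 at 2.58 ± 2.90 and 0.269 ± 0.481 FPKM (SD, n = 5; edgeR adjusted p = 0.0967). Ly6g and S100a9 had the highest means of the list in HSD17B1TG. Csf3r, also tested, was at 0.988 ± 0.194 and 0.680 ± 0.382 FPKM (SD, n = 5, edgeR adjusted p = 0.392). S100a8 was at 0.851 ± 0.553 and 0.320 ± 0.424 FPKM (SD, n = 5). Cxcr2, Ngp, Camp and Retnlg stayed at or under 0.271 FPKM in every mouse. These other markers were named after their values were seen, and the share of neutrophils was not tested. DESeq2 called S100a9 higher (log2 fold change 3.27, adjusted p = 0.0334). In edgeR the log2 fold change of S100a9, 3.20, ran from 2.21 without TG1 to 4.99 without WT2. That of Ly6g, 2.12, ran from 1.78 to 3.13 with a mouse left out. With the epithelium markers as a term the log2 fold changes were 0.61 for Ly6g (edgeR adjusted p = 0.726) and 3.91 for S100a9 (edgeR adjusted p = 0.229). The summed level of 5 leucocyte markers was 41.8 to 71.0 FPKM in HSD17B1TG and 37.7 to 73.4 FPKM in WT, and Laptm5 was the 1 gene of the list called, higher in HSD17B1TG (log2 fold change 1.28, edgeR adjusted p = 0.0312). The other 4 leucocyte markers, named after their values were seen, had negative log2 fold changes and were not called: Ptprc (-1.08, edgeR adjusted p = 0.0558), Cd52 (-1.37, edgeR adjusted p = 0.0639), Coro1a (-0.90, edgeR adjusted p = 0.120) and Lcp1 (-0.46, edgeR adjusted p = 0.203). Ptprc, Cd52 and Coro1a were called lower without WT4 (edgeR adjusted p of 0.0100, 0.0120 and 0.0452), and Ptprc and Cd52 also with DESeq2 (adjusted p of 0.0131 and 0.0116). Ptprc was called with upper-quartile factors in edgeR as well (adjusted p = 0.0481).

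Smooth muscle markers summed to 862 to 7333 FPKM in HSD17B1TG and 405 to 5762 FPKM in WT, with 0 of 8 genes called, among them Acta2 (log2 fold change 0.69, edgeR adjusted p = 0.602, and 0.069 without TG1 and 1.57 without WT4) and Actg2 (log2 fold change 0.14, edgeR adjusted p = 0.935). Of 8 stroma markers 4 were called lower in HSD17B1TG: Pdgfra (log2 fold change -1.99), Hoxa11 (-2.36), Vcan (-1.92) and Col3a1 (-1.46). Among 12 uterine epithelium markers Prom1 was called higher (log2 fold change 1.87, edgeR adjusted p = 0.0324). Each of these 6 calls, Laptm5 included, was lost without TG2 and without TG5, and some also without TG3, TG4, WT1, WT2, WT3 or WT5, with edgeR adjusted p of 0.0503 to 0.0993, and each was lost with the epithelium markers as a term. With that term the log2 fold changes were -1.17 for Pdgfra, -1.24 for Hoxa11, -1.71 for Vcan, -0.96 for Col3a1, 0.88 for Prom1 and 0.63 for Laptm5 (edgeR adjusted p of 0.105 to 0.359), so that of Vcan stayed near its -1.92 while its p moved. Oviduct markers summed to 4.01 to 8.63 FPKM in HSD17B1TG and 3.43 to 8.01 FPKM in WT, with 0 of 4 tested genes called, and Ovgp1, the oviductal glycoprotein, was at 0.935 ± 0.730 and 1.55 ± 1.68 FPKM (SD, n = 5; edgeR adjusted p = 0.534) and Rsph1 at 3.84 ± 1.84 and 2.16 ± 1.12 FPKM (SD, n = 5; edgeR adjusted p = 0.214). Foxj1 and Dnah5, named after their values were seen, went in opposite directions. Foxj1, not tested, was at 0.0269 ± 0.0311 FPKM in HSD17B1TG and 0.494 ± 0.365 FPKM in WT (SD, n = 5). Dnah5 was at 0.246 ± 0.222 and 0.0648 ± 0.0339 FPKM (SD, n = 5, log2 fold change 1.91, edgeR adjusted p = 0.0915).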
